A study of Mus musculus with 13 samples.

Results

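The genes described here encode the proteins of the cytosolic ribosome, and they were followed in the submandibular salivary gland of C57BL/6 mice from E14.5 (days of embryonic age) to 12 weeks of age. Members were taken by symbol alone: every listed gene named Rpl or Rps with a number and no more than a short suffix, plus Rplp0, Rplp1, Rplp2 and Rpsa, leaving out pseudogene symbols and symbols that end in the letter l. The rule found 78 genes of the 23364 listed, 46 of the large subunit and 32 of the small subunit. RNA-seq of 13 gland samples covered 6 ages. E14.5 had 3 samples, and E16.5, E18.5, postnatal day 5 (P5), 4 weeks (4wk) and 12 weeks (12wk) had 2 apiece. The labels name the strain and no allele or treatment. Glands of 3 animals went into each sample at E14.5, and of 2 into each at E16.5 or E18.5, the sex of embryos and P5 pups was not ascertained, and the adult mice were male. E14.5 to E18.5 are called the embryo (7 samples) and 4wk with 12wk the adult (4 samples).

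A eukaryotic ribosome joins a large subunit, which forms peptide bonds and holds the flexible acidic stalk, to a small subunit, which scans and decodes the message. Each ribosomal protein is needed in about equal amounts, and their messages share a start of pyrimidines, the 5′ terminal oligopyrimidine or TOP motif, through which their translation follows growth signals. A growing, dividing embryonic gland makes ribosomes for new cells, whereas the mature gland devotes much of its message pool to a few secreted products.

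The TOP motif is a C at the first base of the message followed by a run of pyrimidines. In RefSeq (GRCm38.p6), 57 members had at least 1 annotated start, and 13 of these had, exactly at a start, a C followed by at least 4 further pyrimidines on the gene's strand, or 22.8%. Among all 27025 genes with a RefSeq start the share was 3.01%, and among 67 genes of the mitochondrial ribosome it was 0%. When the run could begin anywhere within 15 bases of the start on either side, the shares were 64.9% for the members and 40.3% for all genes. The 4 members described individually below that have the run at the start are shown with Rpl10 and Rpl36a, which do not have it. Each line is 30 bases of GRCm38.p6 read 5′ to 3′ on the gene's strand, 15 before the start and 15 from it, with the run that begins at the start in capitals.
Rps6 (chr4:86857353-86857382, minus strand): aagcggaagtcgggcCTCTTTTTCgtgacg
Rplp2 (chr7:141447636-141447665, plus strand): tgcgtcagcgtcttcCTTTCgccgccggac
Rpl38 (chr11:114668565-114668594, plus strand): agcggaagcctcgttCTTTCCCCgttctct
Rps27 (chr3:90213634-90213663, minus strand): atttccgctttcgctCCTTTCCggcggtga
Rpl10 (chrX:74270801-74270830, plus strand): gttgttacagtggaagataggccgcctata
Rpl36a (chrX:134585639-134585668, plus strand): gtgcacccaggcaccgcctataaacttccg
No such run at the start of Rpl10 or Rpl36a says only that these letters are not at this annotated position. The 13 members with the run and the 43 tested members without it had median log2 fold changes from embryo to adult of -1.75 and -1.67, given as a description.

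Values are FPKM, fragments per kilobase of gene scaled to the library's total reads on genes, and they rested on 5817293 to 48314162 reads assigned to genes per library, fewest in the 4wk libraries. The total over genes fixes this scale, so a few very abundant genes lower all others. In the 4 adult libraries the most abundant gene was Scgb1b27, and the median gene tested lay 0.75 lower on the log2 scale than in the embryo. Levels are therefore also given after median-of-ratios rescaling, which sets the typical gene equal across libraries and moved that median to -0.08. Of the E16.5 libraries, replicate 1 stood apart, since 77 of 77 members tested were higher in it than in replicate 2, by a median of 0.97 on the log2 scale. Counts of calls and values that change most without it are also given without it.

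The ribosomal protein genes made up a large part of the embryonic transcriptome and a small part of the adult one. They held 18.8, 22.7 and 21.6% of all FPKM in the E14.5 samples, 30.2 and 19.6% in the E16.5 samples, and 20.8 and 24.0% in those of E18.5. The P5 samples gave 14.51 and 15.7%, the 4wk samples 4.34 and 4.25%, and the 12wk samples 4.52 and 4.30%. The embryonic, P5 and adult ranges did not overlap, and the adult mean was 4.35% ± 0.118 (SD, n = 4). The embryonic mean was 22.5% ± 3.81 (SD, n = 7) and the P5 mean 15.1% ± 0.820 (SD, n = 2).

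**Figure D1:**
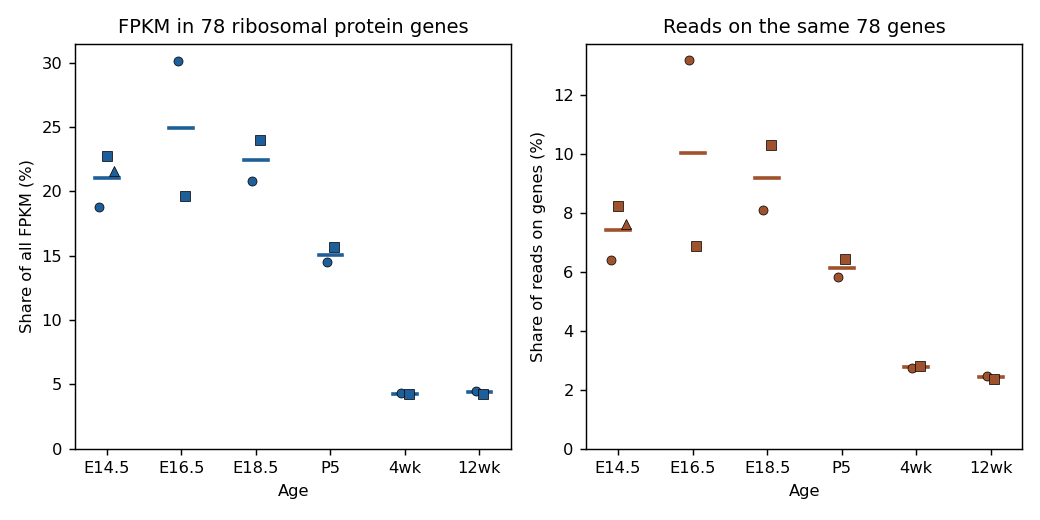
Share of all FPKM (left, %) and of reads assigned to genes (right, %) in the 78 cytosolic ribosomal protein genes, by age, with a point per sample (circle, square and triangle for replicates 1, 2 and 3) and a bar at the mean. Shares of FPKM lie between 18.8 and 30.2% in the embryo and between 4.25 and 4.52% in the adult, and E16.5 replicate 1 is the highest point in both panels.

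Ribosomal protein messages are short, with a median length of 729.5 bases among the 74 members above a mean of 20 FPKM, so they took fewer reads than FPKM. Whole reads could be recovered from the deposited values for all 78 members. The members took 6.42 to 13.2% of reads in the embryo, 5.82 and 6.45% at P5 and 2.37 to 2.80% in the adult. Without E16.5 replicate 1 the highest embryonic share was 10.3%. Of the 50 most abundant genes of each library, 35 to 42 were members in the embryo, 33 at P5 and 6 to 9 in the adult.

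The median member had 1072, 1401 and 1288 FPKM in the E14.5 samples, 2242 and 1168 in the E16.5 samples, 1371 and 1716 in those of E18.5, then 959 and 1051 (P5), 434 and 473 (4wk), and 413 and 397 (12wk). The 4wk and 12wk values were all below those of P5, which in turn were below all embryonic ones. After rescaling, the same medians were 799, 1083 and 987 (E14.5), 1798 and 847 (E16.5), 1123 and 1495 (E18.5), 880 and 1019 (P5), 607 and 767 (4wk), and 606 and 627 (12wk). On that scale every adult value was still below every embryonic one, but P5 lay inside the embryonic range, and the adult mean of 652 ± 77.4 (SD, n = 4) was set against an embryonic mean of 1162 ± 362 (SD, n = 7).

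**Figure D2:**
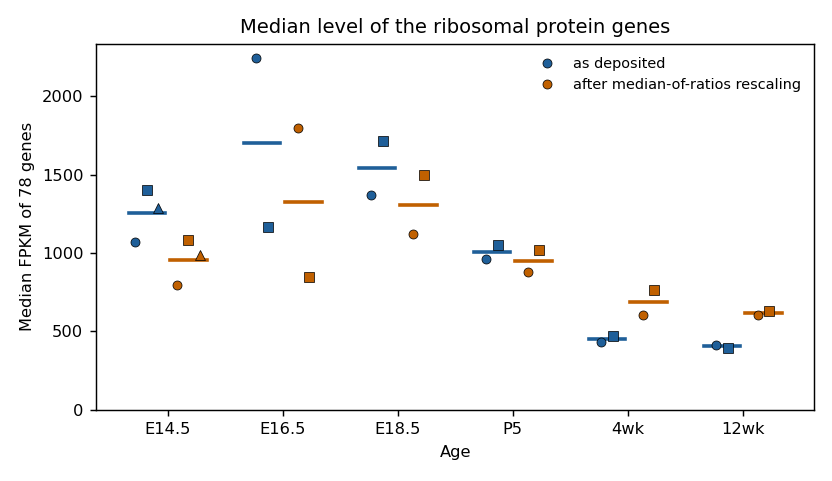
Median FPKM of the 78 genes by age, as deposited (blue) and after median-of-ratios rescaling (orange), with a point per sample (circle, square and triangle for replicates 1, 2 and 3) and a bar at the mean. Points at 4wk and 12wk lie below those at P5 on both scales, by less after rescaling, and the E16.5 replicates lie far apart on both.

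From embryo to adult, nearly every ribosomal protein gene fell on the deposited scale. A gene was called when its log2 fold change was at least 1 in size and its adjusted p below 0.1 in limma over all 14650 genes tested. Of the members, 77 passed the filter of 1 FPKM in any sample, and Rpl26 did not. Of these, 76 were called lower and 0 higher, where 38.0% of all genes tested were called lower, and the median member changed by -1.71 against -0.75 for all genes. The member not called, Rpl10, missed only the fold limit. All 77 had every adult value below every embryonic value, which 54.1% of all genes tested also had. In bulk tissue, fewer cells of a type and less RNA per cell cannot be told apart.

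Rescaling kept the direction of the fall and took most members below the fold limit. After it, 17 of 77 members were called lower and 0 higher, where 14.7% of genes tested were called lower, and the median member changed by -0.78. At any fold size, 69 of 77 members fell with an adjusted p below 0.1 and 0 rose, against 37.0% of genes lower. Values did not overlap, with the adult below the embryo, for 45 members, against 24.0% of genes tested. Without E16.5 replicate 1 the rescaled count was 7, against 14.6% of genes called lower, and the median -0.67. All 7 were among the 17: Rpl13a, Rpl22, Rpl30, Rpl36a, Rps19, Rps2 and Rps4y2. Of these, Rpl30 rests on 0 to 22 reads in the adult libraries, and current RefSeq lists Rps4y2 as a transcribed pseudogene. At any fold 63 members were lower without that library, a count to which the 14.6% does not apply. On the deposited scale 75 members were called without it. No share of all genes is given for the counts of 63 and 75, so neither is read as a result about the members.

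**Figure D3:**
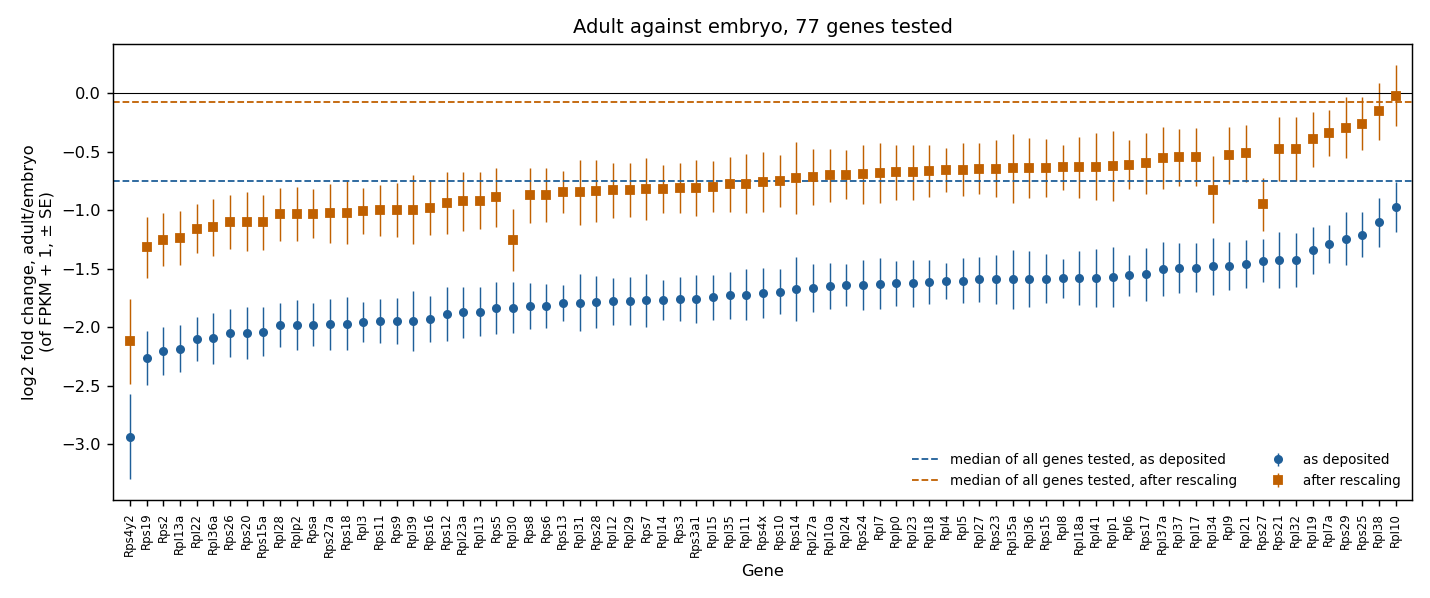
Log2 fold change of FPKM + 1 from embryo to adult, with its standard error, for the 77 ribosomal protein genes tested, ordered by the deposited value, as deposited (blue circles) and after median-of-ratios rescaling (orange squares). The dashed lines are the medians of all 14650 genes tested, -0.75 and -0.08; Rps4y2 lies lowest and Rpl10 highest.

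Both subunits fell on the deposited scale. All 32 small-subunit members and 44 of 45 large-subunit members tested were called lower as deposited, against 38.0% of all genes. Their medians were -1.80 and -1.62. After rescaling 10 and 7 were called, or 31.25 and 15.6%, against 14.7% of all genes, with medians of -0.87 and -0.68. Without E16.5 replicate 1 the rescaled counts were 3 small-subunit and 4 large-subunit members, with medians of -0.76 and -0.58. These were 9.38 and 8.89% of those tested, below the 14.6% of all genes. The summed FPKM of large-subunit genes was 1.25 to 1.34 times that of small-subunit genes in the embryo, 1.38 and 1.35 times at P5 and 1.44 to 1.49 times in the adult. These ratios do not change with library scaling, and the embryonic and adult ranges did not overlap. Without E16.5 replicate 1, the lowest ratio, the embryonic values started at 1.28.

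Rps19, a small-subunit protein needed to mature the 18S rRNA and mutated in Diamond-Blackfan anemia, fell most among the abundant members. It lies on chr7:25669390-25674825 (plus strand; coordinates of genes are GENCODE M1 on NCBIM37). Its FPKM was 972 to 2412 in the embryo, with a median of 1206 and it was 901 and 1027 at P5, then 320 and 331 (4wk) and 224 and 251 (12wk). Every age from P5 on lay below the embryonic median, and the adult below P5. The fold change was -2.27 ± 0.23 (SE) with an adjusted p of 1e-06, and -1.32 after rescaling with an adjusted p of 0.00066.

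Rps2, at the message entry tunnel of the small subunit, and Rpl13a, which outside the ribosome takes part in interferon-induced silencing of inflammatory messages, came next. Rps2 had 1692 to 3334 FPKM in the embryo (median 1800), 1101 and 1172 at P5 and 521, 499, 370 and 376 in the adult, a change of -2.20 as deposited and -1.25 rescaled. Rpl13a had 1086 to 2418 FPKM in the embryo (median 1484), 928 and 1047 at P5 and 405, 330, 320 and 315 in the adult, a change of -2.18 and -1.24. Both passed the call on either scale, with adjusted p of 4.7e-07 and 0.00036 for Rps2 and 4.2e-07 and 0.0004 for Rpl13a. The P5 values of both genes were below every embryonic value.

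The other members of the lower end included Rpl22, a large-subunit protein without which mice are viable, and Rps26, which sits at the message exit channel. Rpl22 had 237 to 496 FPKM in the embryo (median 289), 187 and 210 at P5 and 85.0, 82.1, 61.6 and 60.3 in the adult, and its fold change was -2.10. Rps26 fell from 1187 to 2728 FPKM (median 1605) to 1115 and 1170 at P5 and 411, 454, 393 and 369 in the adult, a change of -2.05. Neither gene's adult values reached the embryonic range on either scale, and after rescaling Rps26 was at -1.10 with E16.5 replicate 1 and at -0.98, not called, without it.

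At the other end stood Rpl10 (chrX:71516151-71518474, plus strand), whose protein joins the large subunit last, in the cytoplasm, and completes the peptidyl transferase center. Its FPKM was 1498, 1967 and 1827 (E14.5), 2785 and 1737 (E16.5), 2493 and 3080 (E18.5), 1981 and 2285 (P5), 990 and 1142 (4wk), and 1119 and 1108 (12wk). The adult values were below all embryonic values as deposited and overlapped them after rescaling. Among the members it moved from ranks 10 to 24 at E14.5 and E16.5 to rank 3 from E18.5 to 4wk and rank 2 at 12wk. The change from embryo to adult was -0.97 ± 0.21 (SE, adjusted p = 0.00093) as deposited and -0.02 (adjusted p = 0.95) after rescaling, or 0.05 without E16.5 replicate 1. Of the 50-base windows of its transcript, 5.73% have no exact copy elsewhere in the genome, and the authors left reads that aligned in several places out of the counts.

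Rpl38, a large-subunit protein whose loss in mice alters translation of Hox messages, had 780 to 1656 FPKM in the embryo (median 862), 796 and 844 at P5 and 463, 547, 418 and 427 in the adult. Rps25, used by viral internal ribosome entry sites, had 741 to 1659 FPKM (median 1128), 690 and 764, and 486, 491, 470 and 446. Rps29 had 1221 to 3003 FPKM (median 1454), 1373 and 1459, and 658, 721, 744 and 704, and Rpl7a 1234 to 1953 (median 1308), 973 and 1057, and 618, 647, 565 and 520. All 4 were called lower as deposited, by -1.10, -1.21, -1.24 and -1.29, and none passed an adjusted p of 0.1 after rescaling, where their changes were -0.16, -0.26, -0.30 and -0.34, or -0.03, -0.16, -0.15 and -0.26 without E16.5 replicate 1. The remaining members that did not pass after rescaling at any fold were Rpl19, Rpl32 and Rps21.

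The acidic stalk of the large subunit, which recruits the elongation factors, holds Rplp0, Rplp1 and Rplp2. Rplp1 was the most abundant member in all 13 libraries, with 2578 to 7623 FPKM in the embryo (median 4319), 3504 and 3808 at P5 and 1384, 1479, 1464 and 1439 in the adult. Rplp0, the stalk base, had 1589 to 2845 FPKM (median 2031), 1808 and 2044, and 721, 775, 678 and 622. Rplp2, the partner of Rplp1, had 765 to 1822 FPKM (median 1155), 730 and 729, and 261, 223, 348 and 348. At P5 the first pair still lay inside the embryonic range, whereas Rplp2 lay below every embryonic value, with fold changes of P5 against embryo of -0.23, -0.16 and -0.65. The adult fell by 1.57, 1.63 and 1.98 on the log2 scale for Rplp1, Rplp0 and Rplp2, and Rplp2 was also called after rescaling, at -1.03, though not without E16.5 replicate 1, at -0.92.

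Rpl5 and Rpl11, which form a particle with 5S rRNA and, when free, bind the p53 ligase Mdm2, changed by -1.60 and -1.72 as deposited. Rpl5 had 610 to 1083 FPKM in the embryo (median 734), 608 and 679 at P5 and 327, 296, 217 and 223 in the adult. Rpl11 had 1486 to 3336 FPKM (median 1873), 1257 and 1396, and 662, 711, 533 and 534. After rescaling both missed the fold limit, at -0.66 and -0.77, and the embryonic and adult values of both overlapped.

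Among small-subunit members with roles of their own, Rps6, the target of the S6 kinases, had 980 to 1861 FPKM in the embryo (median 1331), 877 and 991 at P5 and 392, 439, 349 and 333 in the adult. Rps3, a DNA-repair endonuclease outside the ribosome, had 653 to 1302 FPKM (median 799), 516 and 616, and 268, 252, 238 and 222. Rpsa, also known as a laminin receptor, had 1040 to 2010 FPKM (median 1329), 661 and 728, and 336, 315, 332 and 337. Their fold changes were -1.82, -1.76 and -1.98. Rpsa dropped early, by 0.91 on the log2 scale at P5 against the embryo with P5 below every embryonic value, and its adult values spanned 315 to 337 FPKM. After rescaling it was called at -1.03, but not without E16.5 replicate 1, at -0.92. Rps3 kept closest to the median of the members of those described, with time-point means that spanned 0.0746 on the log2 scale relative to it.

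Large-subunit members with listed roles included Rpl3, at the peptidyl transferase center, Rpl39, at the exit tunnel, and Rpl10a and Rpl7. Rpl3 had 1055 to 1646 FPKM in the embryo (median 1398) and 431, 364, 281 and 306 in the adult, a change of -1.96 as deposited and -1.01 rescaled, or -0.95 rescaled without E16.5 replicate 1, short of the fold limit. Rpl39 had 1384 to 3978 FPKM (median 2278) and 643, 728, 506 and 509, a change of -1.94, with overlapping groups after rescaling. Rpl10a and Rpl7 changed by -1.65 and -1.63. Rpl41, which encodes the shortest of these proteins, had 2436 to 6518 FPKM (median 3212), 2318 and 2364 at P5 and 1280, 1337, 1024 and 1072 in the adult, a change of -1.58. Rps12 and Rpl23a, the other members among the 5 highest in level together with Rplp1, Rpl41 and Rpl10, changed by -1.89 and -1.87.

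Whether members changed relative to one another was asked after setting the median member equal in all libraries, a scale on which library composition plays no part. On it 18 of 77 members were lower in the adult at any fold with an adjusted p below 0.1, against 15.4% of all genes, and 12 were higher, against 51.2% of all genes. The 12 were Rpl10 and Rpl38, at 0.76 and 0.63 above the median member, with Rps25, Rps29, Rpl7a, Rpl9, Rpl17, Rpl19, Rpl21, Rpl32, Rpl37a and Rps21. Of the 18 lower, 13 belonged to the small subunit, among them Rps19 at -0.54 and Rps2 at -0.47, and the large-subunit members included Rpl13a at -0.45, Rpl22 at -0.38 and Rpl36a at -0.37. Of all 77, only Rps4y2 passed the fold limit, at -1.43. The adjusted p was 2.5e-05 for Rpl10, 7.1e-05 for Rpl38, 0.00051 for Rps19 and 0.00085 for Rpl13a.

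Between neighboring ages few members were called before P5. In limma 0 members were called between E14.5 and E16.5, where 4.17% of all genes were called higher, and at any fold 3 were higher with an adjusted p below 0.1. The median member changed by 0.38. This step depended on which E16.5 library was used: the median was 0.87 without replicate 2 and -0.10 without replicate 1. From E16.5 to E18.5, 1 member was called lower, Rps4y2, against 1.85% of genes, and the median of -0.08 turned to 0.37 without E16.5 replicate 1 and to -0.56 without replicate 2. After rescaling limma called 0 members, with 1 lower at any fold, and without E16.5 replicate 1 the rescaled values gave 4 called higher, against 1.54% of genes, with a median of 0.59. From E18.5 to P5 limma called 0 members, against 2.97% of genes lower, while 11 were lower at any fold with an adjusted p below 0.1 and the median was -0.61. The shares of genes given for these steps are for calls and do not apply to the counts at any fold. Those counts have no share of all genes beside them and are not read as results about the members.

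P5 against the embryo gave 1 member called lower, Rpl30, which rests on few reads, where 8.14% of all genes were called lower; the median member changed by -0.51. After rescaling 0 members were called, against 3.90% of genes, and the median was -0.24, or -0.13 without E16.5 replicate 1. At any fold size, 19 members passed an adjusted p of 0.1 as deposited, a count to which the 8.14%, a share of calls, does not apply. No share of all genes is given for it, so it is not read as a result about the members. From P5 to the adult 66 members were called lower, against 20.8% of genes, with a median of -1.28, and after rescaling 2 were called, Rps19 and Rps4y2, against 8.53%, with a median of -0.60. From P5 to 4wk the deposited values gave 56 members called lower, against 22.1% of genes, and the rescaled ones 0, against 8.72%, with medians of -1.15 and -0.49. Between 4wk and 12wk only Rps4y2 was called, against 2.48% of genes lower, and the median was -0.22.

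The E16.5 libraries differed by gene length, and ribosomal protein genes are short. Among other genes with a mean of at least 20 FPKM, replicate 1 minus replicate 2 had a median log2 difference of 0.74 for 216 genes of 200 to 699 bases, 0.46 for 517 genes of 700 to 1199 bases, 0.15 for 1200 to 1999 bases, -0.09 for 2000 to 3999 bases and -0.37 above that. The 74 members of that level differed by 0.97, more than the shortest class of other genes. The E18.5 libraries showed a smaller slope of the same kind, from 0.30 in the shortest class to -0.22 in the longest, with 0.35 for the members. Differences also sloped at 4wk (replicate 2 minus 1), from 0.08 to -0.19, with 0.05 for the members. For E14.5 replicate 1 minus replicate 2 they ran from -0.17 to 0.01, with -0.34 for the members. From embryo to adult, the shortest class changed by a median of -0.50 as deposited and 0.43 after rescaling. The members changed by -1.71 and -0.77, and the part of length in this change was not tested. Replicate 1 also had the most Beta-s, a beta-globin gene of red blood cells, at 8055 FPKM against 3251 in replicate 2 and 2120 to 4987 in the other embryonic samples. The part of length and of blood in the difference between the E16.5 libraries was not tested.

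**Figure D4:**
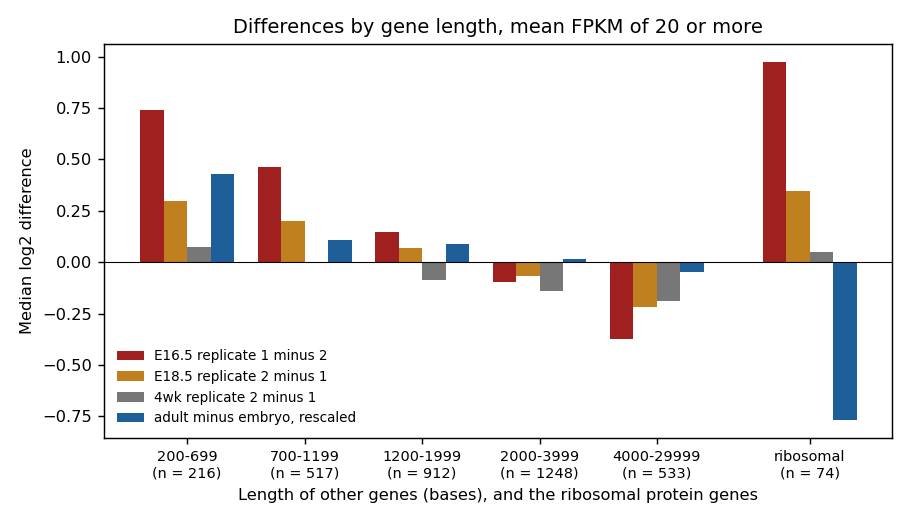
Median log2 difference of FPKM + 1 between libraries or stages (vertical axis; bars for E16.5 replicate 1 minus 2 in red, E18.5 replicate 2 minus 1 in ochre, 4wk replicate 2 minus 1 in gray and rescaled adult minus embryo in blue) for other genes by length in bases and, at the right, for the 74 ribosomal protein genes with a mean of at least 20 FPKM. The E16.5, E18.5 and 4wk replicate differences slope from short to long genes, least at 4wk. In the rescaled adult minus embryo difference the shortest genes are at 0.43 and the ribosomal protein genes at -0.77.

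Of the 78 members, 73 had means over the ages of 101 to 3393 FPKM, 4 lay below 10 FPKM and Rps4y2 lay between. Rpl26 had 0 reads in 12 libraries and 1 read in a P5 library. Rps27 had 0 to 74 reads, 2.71 to 3.97 FPKM in the embryo (median 2.98), 2.02 and 2.93 at P5, and 0, 1.09, 0.478 and 0.673 in the adult. Rpl30 had 0 to 145 reads, 3.89 to 6.39 FPKM in the embryo (median 5.73), 1.85 and 2.39 at P5, and 0, 1.20, 1.24 and 1.24 in the adult. Rpl34 had 1 to 173 reads, 3.56 to 7.99 FPKM in the embryo (median 5.70), 3.09 and 3.50 at P5, and 0.288, 2.32, 1.92 and 1.53 in the adult. Whether these values reflect the level of the messages was not tested.

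By a simple measure of repeated sequence, Rps27 lay below all other members, and Rpl26, Rpl34 and Rpl30 lay within their range. The measure counts exact copies only, and the part of repeated sequence in the low levels of these 4 genes was not tested. Of the 50-base windows of their transcripts, 0.338% in Rps27, 17.8% in Rpl26, 54.6% in Rpl34 and 55.2% in Rpl30 have no exact copy elsewhere in NCBIM37. The other members spanned 1.92 to 97.8%, with a median of 38.4%, and Rps12, among the highest in level, had the 1.92%. Ribosomal protein genes have many processed copies in the genome, 45 of the 76 members with an annotated transcript had under 50% of such windows, and reads that aligned to several places or genes were not counted by the authors. Members' levels therefore rest on the reads that could be placed once, a part that differs between genes.

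Rps4y2 (chr6:148303178-148304120, plus strand) is a copy of Rps4x that current RefSeq lists as Rps4l, a transcribed pseudogene. It had 62.6, 33.9 and 27.9 FPKM (E14.5), 52.1 and 48.9 (E16.5), 24.3 and 23.5 (E18.5), 21.9 and 22.6 (P5), 8.40 and 6.54 (4wk), and 2.14 and 1.61 (12wk). It is the only member called between 4 and 12 weeks, and its values at those ages did not overlap. Its change from embryo to adult was the lowest of all members, -2.93 ± 0.36 (SE, adjusted p = 6.3e-06), and -2.12 after rescaling. Its X-linked counterpart Rps4x had 1599 to 3153 FPKM in the embryo (median 2145), 1726 and 1976 at P5 and 751, 692, 636 and 607 in the adult, a change of -1.71. The annotated coding sequences are identical at 79.8% of aligned bases, and 84.3% of the 50-base windows of Rps4y2 have no other exact copy, against 15.3% for Rps4x.

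Ribosomal proteins with a second gene in the genome, left out by the rule because their symbols end in l or carry a further number, were followed as a separate list. Rpl36al (chr12:70283718-70285070, minus strand) codes for nearly the same protein as the X-linked Rpl36a (chrX:131120193-131122601, plus strand). Rpl36a had 977, 1187 and 1079 FPKM (E14.5), 2018 and 795 (E16.5), 1131 and 1412 (E18.5), 780 and 840 (P5), 310 and 302 (4wk), and 257 and 241 (12wk). Rpl36al had 407, 499 and 478 FPKM at E14.5, then 759 and 400, 657 and 833, 456 and 507, 533 and 515, and 560 and 579 at the following ages. Rpl36a thus had the higher FPKM of the pair in all samples up to P5, and Rpl36al in all 4 adult samples. Of the transcript windows described above, 6.91% in Rpl36a and 29.98% in Rpl36al have no exact copy elsewhere. Reads that aligned in several places were not counted, so which message was the more abundant at any age was not tested.

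The fold change from embryo to adult was -2.09 (SE 0.22, adjusted p = 1.1e-06) for Rpl36a and -0.02 (SE 0.21, adjusted p = 0.93) for Rpl36al, and after rescaling -1.15 (adjusted p = 0.0012) and 0.92 (adjusted p = 0.0055), short of the fold limit for Rpl36al. It was at 1.01 without E16.5 replicate 1, past that limit. Rpl36al made up 27.3 to 37.1% of the summed FPKM of the pair in the embryo, 36.9 and 37.6% at P5, then 63.2 and 63.1% (4wk) and 68.5 and 70.6% (12wk). This share does not depend on library scaling. The adult and embryonic shares differed in an exact permutation test over samples (two-sided p = 0.00606, the smallest that 330 arrangements can give; adjusted over 6 pairs, 0.0182). The annotated coding sequences have 321 bases each and are identical at 87.9% of them. The 30-base coding stretch in which they differ most is shown for each gene from NCBIM37, 5′ to 3′, with the differing bases in capitals, since such positions are what separates their reads.
Rpl36a (chrX:131120617-131120646, plus strand): gtGaacgtGccTaaaacccgCCggacAttc
Rpl36al (chr12:70284091-70284120, minus strand): gtCaacgtAccAaaaacccgAAggacTttc
In each, the stretch is coding bases 4 to 33, and 6 of the 30 differ.

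Rps27l, a p53-responsive relative of Rps27, was not called either. It had 236, 263 and 241 FPKM (E14.5), 593 and 265 (E16.5), 506 and 695 (E18.5), 329 and 352 (P5), 435 and 382 (4wk), and 290 and 290 (12wk), a change of -0.08 (adjusted p = 0.83) as deposited and 0.87 (adjusted p = 0.042) rescaled. Embryonic and adult values overlapped on both scales. Rps27 itself is at a few FPKM at every age, so their balance cannot be read. The coding sequences, 255 bases each, are identical at 76.1%, and the most different 30 bases, coding bases 7 to 36, have 13 differences, again in capitals.
Rps27 (chr3:90017194-90017223, minus strand): ctCgcAaAGgatctCCtTcaTccCtcTCCA
Rps27l (chr9:66794638-66794667, plus strand): ctGgcTaGAgatctGTtAcaCccTtcCTTG

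Rpl22l1, which can replace Rpl22 in the large subunit, was called lower as deposited. It had 297, 345 and 324 FPKM (E14.5), 456 and 168 (E16.5), 231 and 284 (E18.5), 128 and 150 (P5), 95.5 and 135 (4wk), and 114 and 93.7 (12wk), a change of -1.41 (adjusted p = 5.4e-05) as deposited and -0.46 (adjusted p = 0.11) rescaled. Its share of the pair was 52.5 to 55.7% (E14.5), 47.9 and 39.8% (E16.5), 44.5 and 44.9% (E18.5), 40.6 and 41.6% (P5) and 52.9 to 64.9% in the adult. Shares from E16.5 to P5 lay below those of E14.5 and of the adult, and the adult and the embryo differed by the same exact test (p = 0.0182, adjusted 0.0273). Of the transcript windows, 69.2% in Rpl22 and 34.5% in Rpl22l1 have no exact copy elsewhere. These are shares of FPKM, and which message of this pair was the more abundant was not tested. Rpl7l1 went from 45.9 to 66.6 FPKM in the embryo to 29.8 and 31.2 at P5 and 22.9 to 26.8 in the adult, a change of -1.20. Rpl39l stayed at or below 2.07 FPKM, with 0 in both 4wk libraries, and Rpl3l and Rpl10l stayed at or below 0.201 FPKM, where no change could be read.

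**Figure D5:**
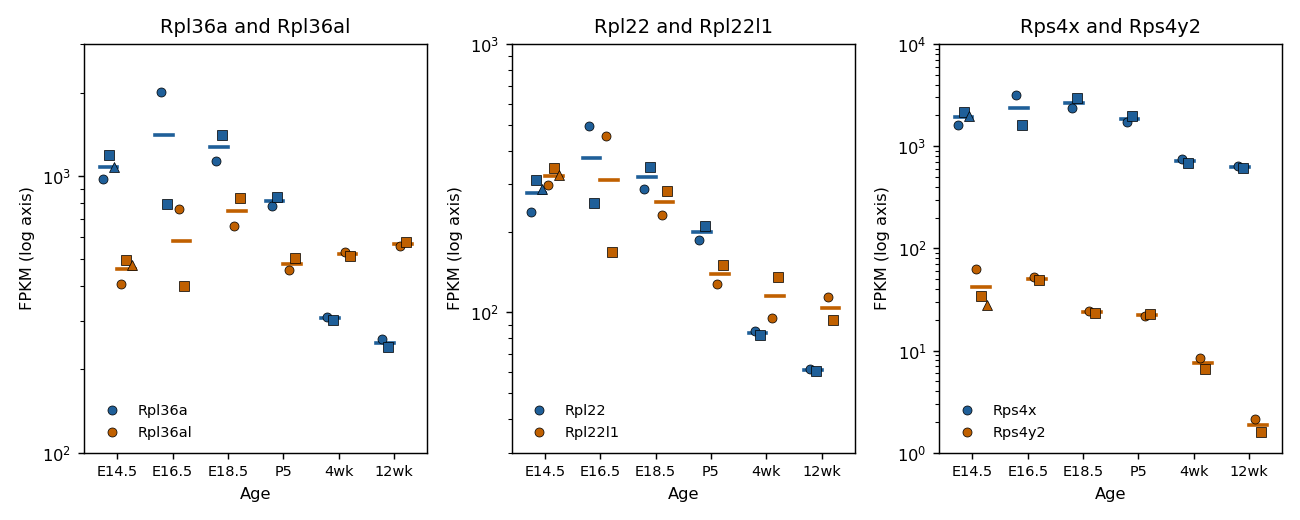
FPKM on a log axis by age for Rpl36a and Rpl36al (left), Rpl22 and Rpl22l1 (middle) and Rps4x and Rps4y2 (right), with a point per sample (circle, square and triangle for replicates 1, 2 and 3) and a bar at the mean. Rpl36a lies above Rpl36al up to P5 and below it in the adult, Rpl22 lies below Rpl22l1 at E14.5 and in the adult, and Rps4y2 falls to 2.14 and 1.61 FPKM at 12wk while Rps4x stays above 600. Genes of a pair differ in the share of transcript windows without an exact copy, so their order in FPKM need not be that of their messages.

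Some ribosomal proteins are made as fusions with ubiquitin or a ubiquitin-like protein. Rps27a, the member of this kind, had 1083 to 2630 FPKM in the embryo (median 1410), 964 and 1054 at P5 and 421, 442, 334 and 351 in the adult, a change of -1.97. Fau, which carries the small-subunit protein eS30 and lies outside the rule, had 566 to 1207 FPKM (median 705), 574 and 601, and 279, 277, 246 and 242, a change of -1.54. Both were called lower as deposited and only Rps27a after rescaling, at -1.03 against -0.59 for Fau. Rps27a was at -0.89 after rescaling without E16.5 replicate 1, and not called. Relative to the median member, Rps27a changed by -0.25 from embryo to adult (adjusted p = 0.037).

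Other genes of protein synthesis gave the members a frame. Of all genes tested, 38.0% were called lower from embryo to adult as deposited and 14.7% after rescaling. Of 22 further TOP messages, 21 were called lower as deposited and 10 after rescaling, or 45.5%. The medians of these messages were -1.88 and -0.95, beside -1.71 and -0.78 for the members. Vim and Npm1 fell most, by 3.48 and 2.92 on the log2 scale, and Pabpc1, which binds poly(A) tails, had 376 ± 61.5 FPKM in the embryo (SD, n = 7) and 315 ± 52.0 in the adult (SD, n = 4). Of 34 initiation and elongation factors, 21 and 2 were called lower, or 61.8 and 5.88%, the latter below the share of all genes. The medians of the factors were -1.19 and -0.30. The 2 called after rescaling were Eef1b2 and Eef1g, subunits of the elongation factor 1 exchange complex. Without E16.5 replicate 1 limma called 0 of the 34 after rescaling, with Eef1b2 at -0.97 and Eef1g at -0.99. In that fit 16 were lower at any fold with an adjusted p below 0.1, a count without a share of all genes beside it. With all libraries, Eif5 and Pabpc1 were 0.75 and 0.69 higher after rescaling, short of the fold limit. Lists share some genes, among them Npm1, Eef1b2 and Eef1g.

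Ribosome biogenesis factors assemble the subunits in the nucleolus. Of 42 such genes, 31 were called lower from embryo to adult as deposited, against 38.0% of all genes, with a median of -1.25. After rescaling 8 were called, or 19.0%, against 14.7% of all genes, with a median of -0.38. P5 against the embryo already gave 6 lower as deposited, or 14.3%, against 8.14% of all genes. The median of that comparison was -0.51 for the members and -0.68 for the biogenesis genes. Their summed FPKM was 2741 to 2930 at E14.5, 1922 and 2462 in the E16.5 samples, 1723 and 1774 in those of E18.5, 1113 and 1182 at P5 and 623 to 734 in the adult, lower at each age up to 4 weeks than at the age before, with no overlap on the deposited scale. After rescaling these sums overlapped between E16.5 (1975 and 1393) and E18.5 (1412 and 1545) and between P5 (1022 and 1146) and 4wk (1028 and 1021). From P5 to the adult 0 of the 42 were called in limma after rescaling, against 8.53% of all genes lower, with 1 lower and 2 higher at any fold. As deposited 6 were called lower, or 14.3%, against 20.8% of all genes. Npm1 and Nop58, a box C/D snoRNP protein, changed by -2.92 and -2.37, and Sbds, which helps release Eif6 from the large subunit, had 34.5 ± 3.63 FPKM in the embryo and 34.9 ± 8.38 in the adult. The difference between the lists was not tested.

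The mitochondrial ribosome translates the messages of the mitochondrial genome. Of 76 of its protein genes tested, 22 were called lower from embryo to adult as deposited and 0 after rescaling, against 38.0 and 14.7% of all genes. After rescaling 17 of 76 were higher and 12 lower at any fold with an adjusted p below 0.1, against 37.0% of all genes lower. The medians of the 76 were -0.81 as deposited and 0.09 rescaled, beside -0.75 and -0.08 for all genes. Mrpl49 and Mrpl50 changed most as deposited, by -1.63 and -1.46, and Mrps18b and Mrps28 least, at -0.16 and -0.18. Of 16 regulators of ribosome synthesis and of TOP translation, 5 were called lower and 1 higher as deposited, where 38.0% of all genes were called lower. Eif4ebp1, an inhibitor of cap-dependent initiation, was the 1 higher, with 50.5 ± 16.8 FPKM in the embryo and 102 ± 33.7 in the adult, a change of 1.02 as deposited and 1.95 rescaled. The deposited value is close to the fold limit, and limma-voom on the recovered reads called 0 of the 16 higher.

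Summed FPKM of cell type markers changed over the same ages, and such sums do not tell cell numbers from RNA per cell. The summed FPKM of 4 markers of dividing cells (Mki67, Top2a, Mcm2 and Ccnb1) was 223 to 309 in the embryo, 90.3 and 92.7 at P5 and 5.27 to 28.6 in the adult. That of 4 mesenchymal markers (Col1a1, Col1a2, Col3a1 and Pdgfra) was 1262 to 2105, 1193 and 1360, and 41.0 to 239, and that of 5 erythroid markers 75.8 to 3052, 12.3 and 23.4, and 2.75 to 4.39, with Hba-a1 at 0 in every sample. The 4 skeletal muscle markers summed to 74.9 to 641 at E14.5 and E16.5, highest in E16.5 replicate 2, and to 12.5 or less later. Markers of the granular ducts, which mature in males after weaning, summed to 10.1 to 123 in the embryo, 551 and 586 at P5 and 17504 to 20517 in the adult. The sum of 3 acinar markers was 17.6 to 331, then 358 and 367, then 399.8 to 628. The part of these shifts in the fall of the ribosomal protein genes was not tested, and age and cell makeup cannot be told apart in these samples.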

How the data were processed

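Gland RNA was sequenced on an Illumina instrument and, per the labels and the submitters' processing notes, mapped with TopHat2 (2.0.13) and Bowtie2 (2.2.6), counted with featureCounts, leaving out reads that aligned to several places or genes, and processed with DESeq2 (1.10.1). The authors deposited 1 table of FPKM values per sample. The deposited FPKM equal reads per kilobase scaled to the library's reads on genes: with gene lengths inferred from the values, 20266 of 20268 genes above 0 gave whole reads within 0.001 in all samples.

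Members and lists were chosen with earlier results of these data known. Genes with at least 1 FPKM in any sample (14650) were tested on log2(FPKM + 1), which understates the change of low genes, with limma 3.58.1 (R 4.3.3). The test was moderated with a variance trend, with Benjamini-Hochberg adjustment over all genes tested, and all 13 samples entered each fit. Stage contrasts came from a fit with a mean per stage (embryo, P5 and adult). Samples of different ages thus counted as replicates within a stage. Comparisons of neighboring ages came from a fit with a mean per age. The fit was tested on simulated data. To be called, a gene needed an adjusted p below 0.1 and a log2 change of 1 or more either way. Median-of-ratios factors came from 13039 genes above 0 in every sample. Python 3.11.15, NumPy 2.4.6 and pandas 2.3.3 made the tables.

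Genes named were the 5 lowest and 5 highest members by fold change from embryo to adult, the 5 highest and 5 lowest in level, the 5 with the widest range relative to the members, members with listed roles, each paralog and fusion (1 gene of these lists is not reported here), and up to 2 genes at each end of other lists; Beta-s and the members listed by a test relative to the median member were named after their values were seen. Groups came from the age labels; nothing ties replicates to separate litters, so p-values measure the spread between these samples. Same-numbered replicates did not deviate together (mean r = -0.016 over 30 pairs, -0.352 to 0.273; 0.012 over 40 other pairs). Coordinates are those of GENCODE M1, which may not be the authors' annotation. Alternatives covered scaling, pseudocount, filters, thresholds, a replicate block, left-out samples and limma-voom on the recovered reads. Depth limits the low members, with 5817293 reads in the shallowest library.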

Additional observations from a re-analysis of the deposited data

Results flagged for a closer look

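Of 84 values or genes tested by Dixon's criterion in groups of 4 or 7 samples, 10 had a sample whose gap to its nearest neighbor passed the 95% limit, which chance alone passes in about 5% of groups. In the embryo, E16.5 replicate 1 was that sample for 6 genes, with 496 FPKM for Rpl22, 6518 for Rpl41, 1822 for Rplp2, 4695 for Rps12, 3334 for Rps2 and 2010 for Rpsa. These are not independent, since all 77 members tested were higher in that library than in the other E16.5 library. E18.5 replicate 2 had 3.97 FPKM of Rps27, above the other embryonic samples. Among the adult samples, 4wk replicate 1 had 405 FPKM of Rpl13a and 0 FPKM of Rpl30, and 4wk replicate 2 had a median rescaled level of the members of 767 FPKM. The 4wk libraries have the fewest reads.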

How the results depend on the processing

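Library scaling decided how many ribosomal protein genes passed the fold limit. From embryo to adult, 76 were called as deposited, 17 after median-of-ratios rescaling (7 without E16.5 replicate 1 and 21 without 4wk, both chosen after seeing the data), 42 with the total outside the 100 highest genes as the base, 58 of which are members, and 1 relative to the median member. Their median log2 fold changes were -0.78, -0.67, -0.83, -1.04 and 0.00309, the last by construction. For adult against P5 the median-of-ratios, outside-100 and median-member scalings gave 2, 27 and 0 calls and medians of -0.60, -0.95 and -0.064 (rescaled, 5 and -0.62 without 4wk, and 2 and -0.60 without E16.5 replicate 1), and for 4wk against P5 0, 18 and 0 calls. For P5 against embryo each gave 0 calls, with medians of -0.24 (-0.13 without E16.5 replicate 1), -0.16 and -0.0061, as did 1 FPKM in every sample and a pseudocount of 0.1, and no fold limit gave 19. For E18.5 against E16.5 the 3 scalings gave 0 calls, and median-of-ratios without E16.5 replicate 1 gave 4, all higher. With no fold limit, 3 members passed for E16.5 against E14.5 and 11 for P5 against E18.5. Outside the 100 highest genes the embryonic, P5 and adult shares were 32.8, 29.7 and 15.9%. Leaving out single samples gave 75 to 77 calls and medians of -1.78 to -1.60 for adult against embryo, 0 to 1 and -0.59 to -0.40 for P5 against embryo, and 58 to 68 and -1.33 to -1.18 for adult against P5. It gave 0 to 16 calls for E16.5 against E14.5, 0 to 1 for E18.5 against E16.5 and for P5 against E18.5, 46 to 63 for 4wk against P5 and 1 to 3 for 12wk against 4wk, where 3 came without 4wk replicate 2, with Rpl30 and Rpl34 higher. Shares without 1 sample were 21.3 to 23.2%, 14.51 to 15.7% and 4.29 to 4.38%. The replicate block gave 77 calls for adult against embryo and 1, 66, 0, 1, 0, 56 and 1 for the other comparisons in the order of the text (P5 against embryo, adult against P5, then the steps from E14.5 on), so it changed no other count; the numbers do not pair the samples. limma-voom on recovered reads called 76. Relative to the median member, a scale centered on the members, these genes turned from lower as deposited to higher, as did Rpl10 at 0.76: Rpl10a 0.079, Rpl11 0.0094, Rpl38 0.63, Rpl41 0.15, Rpl5 0.13, Rpl7 0.10, Rpl7a 0.44, Rplp0 0.10, Rplp1 0.16, Rps25 0.52, Rps29 0.49, Rps4x 0.023, Rpl7l1 0.49, Rpl22l1 0.31, Rps27l 1.65, Rpl36al 1.71 and Fau 0.19. Rpl36al and Rps27l were already at 0.92 and 0.87 after median-of-ratios rescaling, and Rpl36al at 1.01 without E16.5 replicate 1. Of other single-gene values under alternatives, 816 had the same call as the main fit, called or not. Direction was not compared where neither fit called the gene, and Rpl36al and Rps27l changed sign in some of these. A further 108 kept the direction and missed the call, and 4 newly passed it. Depth limits Rpl26, Rpl30, Rpl34 and Rps27.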
